A study of Homo sapiens with 8 samples.

Results

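The 9 genes described here are the receptors for estrogen and progesterone (ESR1, ESR2 and PGR), the transcription factors GATA3, FOXA1, SPDEF, XBP1 and ELF3, and the estrogen-induced secreted protein TFF1. They were picked by symbol out of 23228 counted genes, because they are linked to luminal breast epithelium. The rule uses no measured value, although earlier results of these data were known when it was chosen. The question put to them was whether inhibition of histone deacetylases (HDACs) brings luminal genes back in a triple-negative breast cancer line. The line was BT-549, an established human cell line grown in RPMI with 10% FBS. Its 4 groups were vehicle (DMSO), the leukemia inhibitory factor receptor (LIFR) inhibitor EC359 at 100 nM, the HDAC inhibitor vorinostat at 10 µM, and EC359 + vorinostat, all for 24 h. Each group had 2 RNA-seq libraries, 8 in all. The study's methods speak of biological replicates for its in vitro assays in general, and the sequencing is described as run in duplicate. Whether the 2 libraries of a group came from separate cultures is not stated for the RNA-seq itself, so p-values measure the spread between these libraries, which may be technical.

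In estrogen receptor-positive luminal breast cells, estrogen receptor α, the product of ESR1, works with FOXA1 and GATA3. FOXA1 opens closed chromatin ahead of the receptor, and GATA3 specifies the luminal lineage. TFF1 and PGR are classical targets of the receptor, and their RNA is used as a readout of its activity. Triple-negative tumors lack the estrogen and progesterone receptors and HER2 amplification, and basal or mesenchymal lines such as BT-549 usually carry little of the luminal program. HDAC inhibitors raise histone acetylation and change the RNA of very many genes in both directions, so the behavior of the luminal genes has to be read against that of all genes.

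The libraries held 19069450 to 24759041 counts on genes, at which 1 read was worth 0.0412 to 0.0514 normalized CPM (read counts set relative to library size, with TMM scaling). The label was checked against defining markers. In vehicle libraries ESR1 and PGR had 0 counts, whereas ERBB2, the HER2 gene, averaged 99.1 CPM or 9.60 RPKM (CPM per kilobase of exon). The epithelial markers EPCAM and CDH1 averaged 0.164 and 0.258 CPM and KRT8 and KRT18 averaged 1.34 and 0.986 CPM, against 2111 CPM for the mesenchymal filament gene VIM. In the lists of other cell types, the summed level ran from 42.6 to 49.8 CPM in vehicle and from 225 to 269 CPM in EC359 + vorinostat for the leukocyte list. That sum was carried almost wholly by the lysosomal gene CD68 (43.6 and 245 CPM), while PTPRC and CD3E were at most 0.708 CPM in every library. The endothelial list summed to at most 1.64 CPM. Epithelial markers also split the libraries of 1 group. In combination replicates 1 and 2, EPCAM had 9 and 70 counts, KRT8 had 26 and 180, KRT18 had 14 and 157, KRT19 had 12 and 77, and CDH1 had 1 and 14, so that replicate 1 lay near vehicle and replicate 2 nearer vorinostat. All 5 were higher in vorinostat replicate 1 than in replicate 2, by the widest margin for CDH1 (43 and 11 counts). AGR2, a luminal secretory gene named after its values were seen, had 79 and 1 counts in those 2 libraries and at most 2 in any other. The part of this split in the results that follow was not tested. These are bulk libraries, in which a change in the number of cells expressing a gene and a change in RNA per cell cannot be told apart.

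Promoter sequence is shown for XBP1 and ELF3, because they had the largest tested fall and the largest tested rise with vorinostat among members present in vehicle. The sequences are the RefSeq bases before the transcription start on GRCh38.p14, written 5′ to 3′ on the gene's strand. For XBP1 the interval is chr22:28800570-28800819 on the minus strand, from the more upstream of 2 listed starts, and capitals mark a match to the endoplasmic reticulum (ER) stress response element. For ELF3 it is chr1:202010337-202010586 on the plus strand, and capitals mark a TATA motif.
XBP1: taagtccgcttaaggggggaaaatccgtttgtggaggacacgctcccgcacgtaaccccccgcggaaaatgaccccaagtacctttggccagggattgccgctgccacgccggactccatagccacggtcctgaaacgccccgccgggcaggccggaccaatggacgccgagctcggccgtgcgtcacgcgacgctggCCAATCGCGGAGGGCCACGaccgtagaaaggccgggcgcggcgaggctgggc
ELF3: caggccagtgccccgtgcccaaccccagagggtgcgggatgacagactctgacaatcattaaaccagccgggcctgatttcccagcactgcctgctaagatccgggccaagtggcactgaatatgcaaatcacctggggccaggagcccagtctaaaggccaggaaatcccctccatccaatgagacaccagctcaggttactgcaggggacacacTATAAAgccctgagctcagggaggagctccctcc

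Of the 9 members, 8 had promoter entries, and TFF1, which had none, was not searched. Each entry spans 250 bases before to 50 bases after a start, and 35116 such entries were searched on both strands. The ER stress response element, searched as CCAAT and CCACG separated by 9 bases of any kind, begins at position -52 of the XBP1 start and was found in 27 promoters, 0.0769% of all. Its first letters are themselves a CCAAT box, which 34.6% of promoters hold. The TATA motif, searched as TATAAA, begins at position -34 of the ELF3 start and was found in 11.5% of promoters. The full XBP1 entry, including the 50 bases after the start that are not printed, held 40 CpG dinucleotides and that of ELF3 held 7, against a median of 14 over all entries. The 250 printed bases hold 31 and 4. The full estrogen response element was searched as GGTCA and TGACC separated by 3 bases of any kind. It was found in 0.057% of promoters and in no entry of the 8 members. That says only that these letters are not in these windows. Its half-site, AGGTCA, was found in 13.8% of promoters and, among the members, only in entries of ESR2.

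Per length, the members spanned a wide range in vehicle cells. XBP1 stood at 42.0 ± 2.79 RPKM (SD, n = 2), above 91.7% of the 11752 tested genes with a known exonic length. FOXA1 followed at 0.144 ± 0.00859 RPKM and GATA3 at 0.0898 ± 0.00911 RPKM, a gap larger than either SD. They rested on 27 and 13 counts over the group, so counting error may leave their order unresolved. Median expression of the tested genes was 5.31 RPKM. TFF1 (0.142 ± 0.201 RPKM), SPDEF, ELF3 and ESR2 rested on 5 or fewer counts over the group, so their order was not resolved, and ESR1 and PGR were not detected. With 0 counts in both vehicle libraries, a level of up to 0.0704 CPM is allowed for either receptor, for counting error only.

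**Figure D1:**
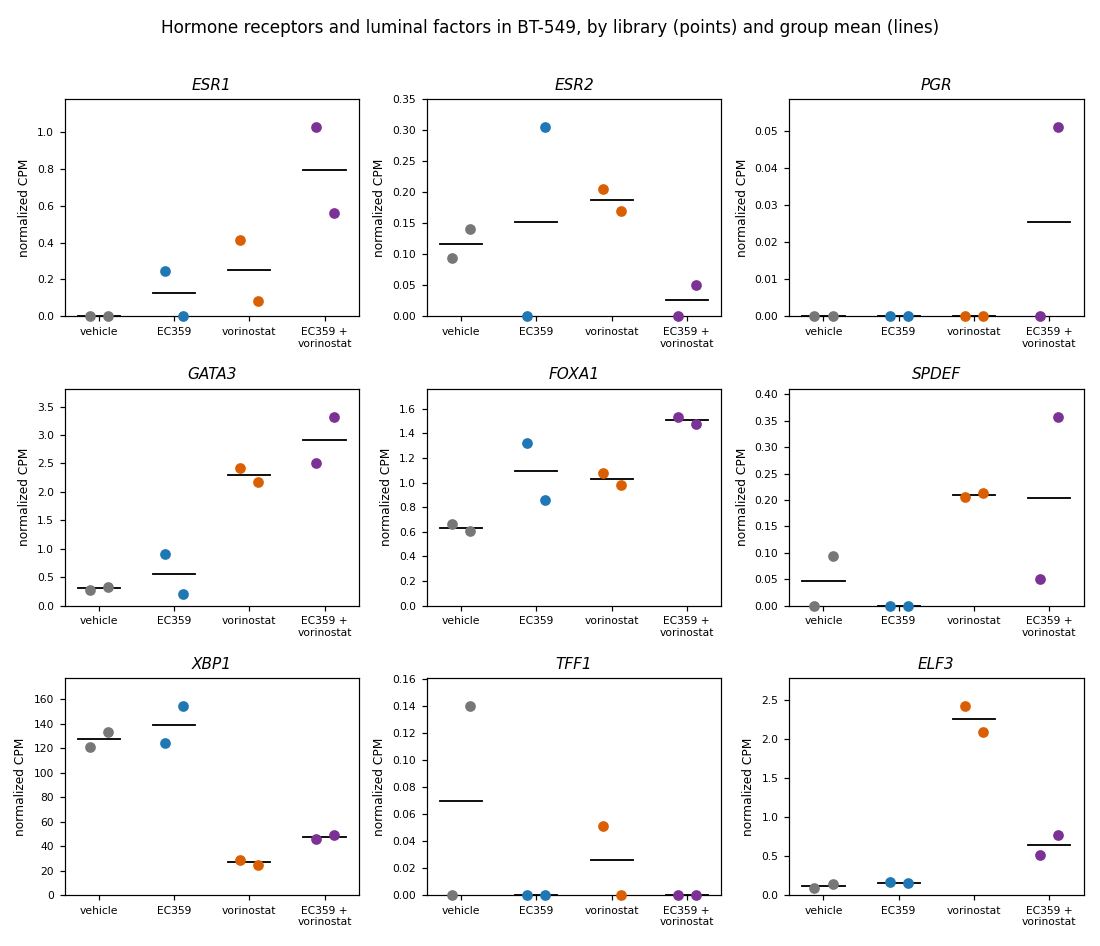
Normalized CPM (vertical axes, linear, each with its own scale from 0) of the 9 genes in the 4 groups (horizontal axes). Points are the 2 libraries of a group and black lines their mean. XBP1 falls from 127 to 26.8 CPM with vorinostat, GATA3 and ELF3 rise from under 0.4 to over 2 CPM, and ESR2, PGR, SPDEF and TFF1 stay under 0.4 CPM throughout.

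Estrogen receptor α RNA was detected at a trace level in some treated libraries. ESR1 (GRCh37 chr6:151977826-152450754, plus strand) had 0 and 0 counts in vehicle, 6 and 0 in EC359, 8 and 2 in vorinostat, and 20 and 11 in EC359 + vorinostat. Both combination libraries were above every other library, and the EC359 libraries overlapped vehicle. The combination averaged 0.793 ± 0.327 CPM (SD, n = 2), 11.2-fold higher than vehicle when vehicle is set at 3 counts over the group. The same ratio, from the counts pooled over the group, was 3.30-fold for vorinostat. These ratios allow for counting error in vehicle only and not in the treated groups, so they are not lower bounds. No ratio is given for EC359, whose 6 counts were all in replicate 1. In edgeR's quasi-likelihood fit, with p-values adjusted over all 13694 tested genes by Benjamini-Hochberg, ESR1 was called against vehicle in the combination (adjusted p = 0.00941), and not in vorinostat (adjusted p = 0.0685) or EC359 (adjusted p = 0.257). A call means an adjusted p under 0.01 with an absolute log2 fold change over 1. ESR1 reached 10 counts, the minimum of the filter on low counts, only in the combination libraries, so its call there is no support by itself. The combination call was lost when any 1 of the vehicle, vorinostat or combination libraries was left out (adjusted p up to 0.0548) and on total-count scaling (adjusted p = 0.0104). The difference between combination and vorinostat had an adjusted p of 0.219 by the same test. Even in the combination, ESR1 stood at 0.0577 RPKM, above 1.63% of tested genes.

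Estrogen receptor β and progesterone receptor RNA stayed at the limit of detection. ESR2 (chr14:64550950-64804830, minus strand) had 2 and 3 counts in vehicle, 0 and 6 in EC359, 4 and 4 in vorinostat, and 0 and 1 in the combination, and the groups with and without vorinostat overlapped. PGR (chr11:100900355-101000544, minus strand) had a single count over all 8 libraries, in 1 combination library. Neither passed the filter on low counts. In an exact two-sided permutation test of the 4 libraries with vorinostat against the 4 without, the p was 0.743 for ESR2 (0.107 ± 0.0971 against 0.135 ± 0.127 CPM) and 1 for PGR, where the smallest possible p was 0.0286 and 4 members were tested in this way. The estrogen-induced target TFF1 (chr21:43782391-43786644, minus strand) had 0 and 3 counts in vehicle, 1 and 0 in vorinostat, and 0 in all libraries of the other groups (p = 1 by the same exact test).

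GATA3, the luminal lineage factor, was raised by vorinostat with or without EC359. GATA3 (chr10:8087341-8117161, plus strand) had 6 and 7 counts in vehicle, 22 and 4 in EC359, 47 and 51 in vorinostat, and 49 and 65 in the combination. The 4 libraries with vorinostat lay above all 4 without it, and the EC359 libraries fell on both sides of vehicle. Mean levels were 0.305 ± 0.0309, 0.555 ± 0.498, 2.29 ± 0.176 and 2.91 ± 0.574 CPM in that order (SD, n = 2). Vorinostat raised GATA3 7.38-fold over vehicle (log2 fold change 2.88, SE 0.58, edgeR adjusted p = 0.00198) and the combination 9.38-fold (3.23, SE 0.58, edgeR adjusted p = 8.6e-04). Leaving out vehicle replicate 1, vehicle replicate 2 or vorinostat replicate 1 moved the vorinostat p to 0.0211, 0.0174 and 0.0117, and leaving out vehicle replicate 1 moved that of the combination to 0.0112. The combination differed from vorinostat by 0.35 on the log2 scale (SE 0.45, edgeR adjusted p = 0.604). EC359 differed from vehicle by 0.90 (SE 0.67, edgeR adjusted p = 0.395), a value that was -0.57 without EC359 replicate 1. At 0.675 RPKM in vorinostat, GATA3 was above 16.7% of tested genes.

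FOXA1, the pioneer factor, did not pass the thresholds in any comparison. FOXA1 (chr14:38058757-38065264, minus strand) had 14 and 13 counts in vehicle, 32 and 17 in EC359, 21 and 23 in vorinostat, and 30 and 29 in the combination. Every treated library was above both vehicle libraries. Mean levels ran from 0.634 ± 0.0379 CPM in vehicle to 1.51 ± 0.0384 CPM in the combination, with EC359 at 1.09 ± 0.323 and vorinostat at 1.03 ± 0.0724 CPM. The log2 differences from vehicle were 0.79 (SE 0.41) for EC359, 0.69 (SE 0.41) for vorinostat and 1.24 (SE 0.40) for the combination, with edgeR adjusted p of 0.226, 0.169 and 0.0210. The vehicle level rested on 27 counts over the group.

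ELF3, an epithelial ETS-family factor, had the largest rise among the members detected in vehicle, and a lower level when EC359 was added. ELF3 (chr1:201977073-201986311, plus strand) had 2 and 3 counts in vehicle, 4 and 3 in EC359, 47 and 49 in vorinostat, and 10 and 15 in the combination. The combination libraries lay between those of vorinostat and those of the groups without it, with no overlap. Means were 0.117 ± 0.0323, 0.159 ± 0.00902, 2.25 ± 0.236 and 0.639 ± 0.180 CPM (SD, n = 2). ELF3 rose 18.3-fold with vorinostat (log2 fold change 4.19, SE 0.53, edgeR adjusted p = 1.2e-04). ELF3 reached 10 counts, the minimum of the filter on low counts, only in libraries with vorinostat, so its calls against vehicle are no support by themselves. With both drugs it was 5.23-fold over vehicle (2.39, SE 0.61, edgeR adjusted p = 0.00642), a call that DESeq2 (adjusted p = 0.0210), a fit of only these groups (0.0112) and leave-outs of vehicle replicate 1, vehicle replicate 2, either vorinostat library or combination replicate 2 (up to 0.0541) did not keep. The combination was below vorinostat by -1.80 on the log2 scale (SE 0.42, edgeR adjusted p = 0.0128), outside the threshold. This difference was called in a fit of only these groups (adjusted p = 0.00545), while the adjusted p was 0.0415 by DESeq2. Over leave-outs the log2 difference ran from -2.16 to -1.58. ELF3-AS1 overlaps 664 bases of ELF3 exons on the opposite strand, and whether counting used strand is not given in the sources used here, so reads of the 2 genes may not be told apart.

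SPDEF, another epithelial ETS factor, was detected mainly in libraries with vorinostat. SPDEF (chr6:34505579-34524110, minus strand) had 0 and 2 counts in vehicle, 0 and 0 in EC359, 4 and 5 in vorinostat, and 1 and 7 in the combination, which is 17 counts with vorinostat and 2 without. Combination replicate 1, the combination library with the lower epithelial markers, lay within the range of the libraries without vorinostat. The mean was 0.207 ± 0.125 CPM with and 0.0234 ± 0.0467 CPM without vorinostat (SD, n = 4; exact permutation p = 0.0571). Over leave-outs of each library the exact permutation p ran from 0.0286 to 0.0857. It was lowest without combination replicate 1, at a difference of 0.235 CPM. No correction was made for the 4 members tested in this way.

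XBP1 was the one abundant member, and it fell. XBP1 encodes the transcription factor of the unfolded protein response that is switched on by splicing of its RNA and is also highly expressed in estrogen receptor-positive tumors. XBP1 (chr22:29190543-29196585, minus strand) had 2569 and 2852 counts in vehicle, 3010 and 3043 in EC359, 557 and 586 in vorinostat, and 895 and 963 in the combination. The 4 libraries with vorinostat were below all 4 without it, and both combination libraries were above both vorinostat libraries. Mean levels were 127 ± 8.45, 139 ± 21.4, 26.8 ± 2.64 and 47.5 ± 2.39 CPM (SD, n = 2). XBP1 was 4.76-fold lower with vorinostat than with vehicle (log2 fold change -2.25, SE 0.13, edgeR adjusted p = 1.5e-06), and 2.47% of all tested genes had a log2 fold change at or below it. In the combination it was 2.68-fold lower than vehicle (-1.42, SE 0.13, edgeR adjusted p = 1.2e-05) and 0.83 higher than vorinostat on the log2 scale (SE 0.13, edgeR adjusted p = 0.00231), under the fold threshold. EC359 alone differed from vehicle by 0.13 (SE 0.13, edgeR adjusted p = 0.526). The XBP1 call against vehicle was kept in every alternative run, for vorinostat and for the combination. Counts per gene do not separate its spliced from its unspliced RNA.

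**Figure D2:**
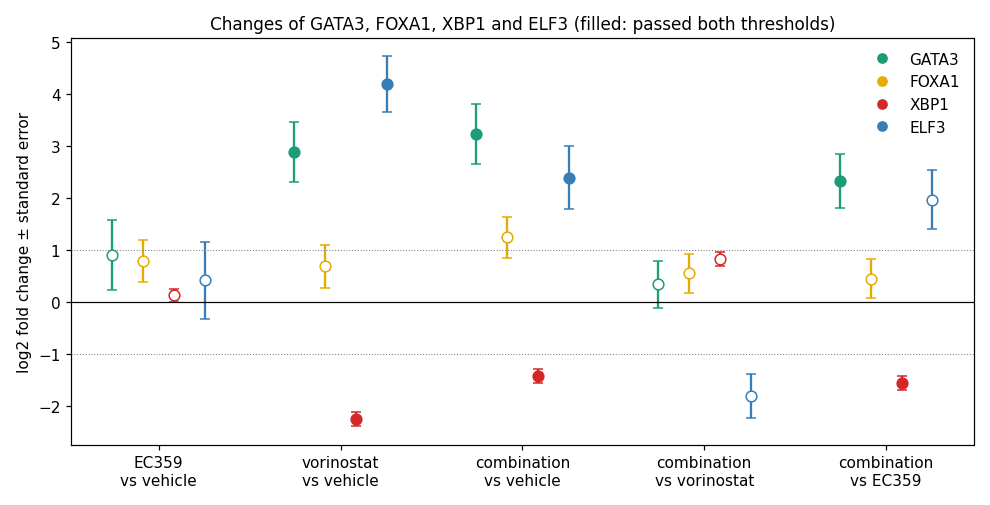
Log2 fold changes (vertical axis) of GATA3, FOXA1, XBP1 and ELF3 in the 5 pairwise comparisons (horizontal axis), with bars of 1 standard error from the edgeR fit. Filled points passed both thresholds and dotted lines mark absolute log2 fold change 1. ESR1 is not drawn because its fitted change rests on 0 counts in vehicle. XBP1 is called lower and GATA3 higher in each comparison of vorinostat-treated with untreated cells.

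Counted together, 0 of the 5 tested members were called with EC359 against vehicle, where 3.67% of all tested genes were called, 1.94% higher and 1.72% lower (edgeR; 0 members at an unadjusted p under 0.05 and 0 by DESeq2). With vorinostat against vehicle, GATA3 and ELF3 were called higher and XBP1 lower, where 30.1% of tested genes were called, 16.8% higher and 13.3% lower. With the combination, ESR1, GATA3 and ELF3 were called higher and XBP1 lower, against 34.8% of all tested genes, 19.5% higher and 15.3% lower. ELF3 and ESR1 reached 10 counts, the minimum of the filter, only in libraries with vorinostat, and ESR1 only in those of the combination. GATA3 did so in all 4 libraries with vorinostat and in 1 without it. The count of these calls is therefore no support by itself. The libraries of the compared groups did not overlap for 53.4% of tested genes between EC359 and vehicle, 88.9% between vorinostat and vehicle, 86.5% between the combination and vehicle, 72.9% between the combination and vorinostat, and 79.7% between the combination and EC359, so in each of these comparisons most tested genes had separate libraries. The comparisons with vehicle share the vehicle libraries and are given side by side only.

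**Figure D3:**
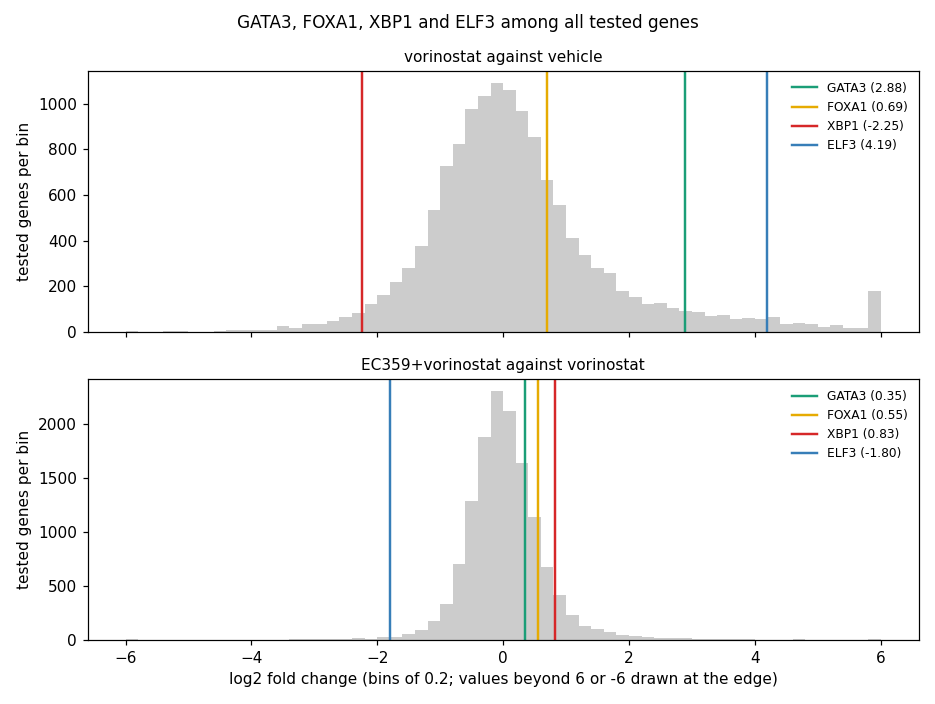
Distribution of log2 fold changes over all 13694 tested genes (gray; vertical axis, genes per bin) for vorinostat against vehicle (upper) and EC359 + vorinostat against vorinostat (lower), with the values of GATA3, FOXA1, XBP1 and ELF3 as colored lines. With vorinostat ELF3 and GATA3 lie in the upper tail at 4.19 and 2.88 and XBP1 in the lower tail at -2.25. In the lower panel ELF3 lies at -1.80 and XBP1 at 0.83.

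For the effect of adding EC359 to vorinostat, 0 of the 5 tested members were called where 4.25% of tested genes were, 3.37% higher and 0.876% lower (edgeR; 2 members, XBP1 and ELF3, at an unadjusted p under 0.05, and 0 by DESeq2). Departure from additivity, the combination's log2 change beyond the 2 single-drug log2 changes added together, was called for 0 of the 5, where 2.1% of tested genes were called, 1.62% higher and 0.482% lower (edgeR adjusted p under 0.01; XBP1 and ELF3 had an unadjusted p under 0.05, and 0 were called by DESeq2). It was 0.70 for XBP1 (SE 0.18, edgeR adjusted p = 0.0567) and -2.22 for ELF3 (SE 0.87, edgeR adjusted p = 0.177). Over leave-outs it ran from 0.54 to 0.86 for XBP1 and from -2.60 to -1.99 for ELF3. Against EC359 alone, the combination had GATA3 higher (log2 fold change 2.33, SE 0.52, edgeR adjusted p = 0.00328) and XBP1 lower (-1.55, SE 0.13, edgeR adjusted p = 8.0e-06), where 33.7% of tested genes were called, 19.8% higher and 13.9% lower. The GATA3 call was lost without either combination library and in a fit of these groups only (adjusted p = 0.0124).

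Markers of luminal epithelium moved in both directions. Of 30 luminal epithelial markers, 21 were tested, and with vorinostat 6 rose (28.6%), 2 fell (9.52%) and 13 were not called, beside 16.8% higher and 13.3% lower over all tested genes. The median log2 fold change was 1.64, against 0.03 over all tested genes. The filter on low counts bears on both the count and the median, since 5 of the 21, BCAS1, DNAJC12, EHF, ERBB4 and CDH1, were under 10 counts in every library without vorinostat. They are therefore a description and no support for a change of the list. ERBB3, the HER2 partner receptor, went from 0.869 ± 0.0397 to 10.5 ± 0.0308 CPM (log2 fold change 3.59, SE 0.22, edgeR adjusted p = 1.8e-06). DNAJC12, a co-chaperone gene, went from 0.164 to 5.60 CPM and EHF, an ETS relative of ELF3, from 0.189 to 2.51 CPM. BCAS1 had 0 counts in vehicle and EC359 and 139 over the vorinostat libraries. EPCAM was called at 4.22 (SE 0.99, edgeR adjusted p = 0.00450) and, like the keratins and CDH1, it split the combination libraries (0.461 and 3.57 CPM). CD24, a surface glycoprotein gene, fell by 1.64 on the log2 scale with EC359 and rose by 1.64 with vorinostat (16.8 and 163 CPM, against 52.0 CPM in vehicle). The 2 that fell, named after their values were seen, were the melanosome-transport gene MLPH (-1.75) and the mucin gene MUC1 (-1.53). KRT8 (2.41, edgeR adjusted p = 0.0193), KRT18 (2.37, adjusted p = 0.0303) and CDH1 (2.32, adjusted p = 0.0620) did not pass. The number called in this list with vorinostat ran from 7 to 13 over leave-outs, with 13 when either EC359 library was left out. With the combination 5 rose and 3 fell (median 0.90), 8 in all. These were 23.8% and 14.3%, beside 19.5% higher and 15.3% lower over all tested genes. Leaving out combination replicate 1 gave 11 and leaving out replicate 2 gave 7. Between combination and vorinostat 1 was called, TBX3, a T-box factor, at 1.05 (4.76%, beside 3.37% higher over all tested genes). That call was lost on total-count scaling or without vorinostat replicate 1.

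ERBB2, the remaining gene of the triple-negative definition, fell. Its levels were 96.1 and 102 CPM in vehicle, 76.1 and 80.2 in EC359, 15.8 and 14.8 in vorinostat, and 12.03 and 12.6 in the combination. The log2 fold change was -2.70 (SE 0.10, edgeR adjusted p = 2.2e-07) with vorinostat and -3.01 (SE 0.11, edgeR adjusted p = 7.1e-08) with both drugs. ERBB2 and ERBB3, which encode receptors that pair with each other, thus moved in opposite directions.

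Genes known as estrogen receptor targets were called at shares near the background with vorinostat. Of 22 listed, 16 were tested. With EC359 2 rose (12.5%, beside 1.94% higher over all tested genes), the transcription factor gene MYB (1.78) and the cyclin D1 gene CCND1 (1.03). Not both calls held without EC359 replicate 1 or either vehicle library. With vorinostat 3 rose and 3 fell (18.8% each, beside 16.8% higher and 13.3% lower over all tested genes; median 0.08). CELSR2, TPD52L1 and, named after its value was seen, SLC9A3R1 rose by 2.50, 2.03 and 1.94, and the potassium channel gene KCNK6, CCND1 and the stanniocalcin gene STC2 fell by 2.10, 2.02 and 1.89 on the log2 scale. With both drugs 4 rose and 2 fell (25% and 12.5%, beside 19.5% higher and 15.3% lower over all tested genes). Adding EC359 to vorinostat raised 3 of the 16 (18.8%, beside 3.37% higher over all tested genes). They were FHL2 (1.48), the growth factor receptor gene IGF1R (1.42) and STC2 (1.40). STC2 went from 788 ± 21.4 CPM in vehicle to 213 ± 0.279 with vorinostat and 561 ± 27.9 with both drugs, and IGF1R from 56.3 ± 0.112 to 78.0 ± 4.15 and 208 ± 7.39 CPM.

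Of 17 coactivators and corepressors of the estrogen receptor, 16 were tested, and with vorinostat 1 rose and 4 fell (6.25% and 25%, beside the same 16.8% and 13.3%; median -0.46). The coactivator NCOA3 rose by 1.22. NCOA2, a relative of NCOA3, fell by 2.27, the RNA helicase DDX17 by 1.44, the acetyltransferase gene CREBBP by 1.32 and, named after its value was seen, the corepressor NCOR1 by 1.10 on the log2 scale (it ranked behind 4 others). With both drugs 1 rose and 5 fell (6.25% and 31.2%, beside 19.5% higher and 15.3% lower over all tested genes). Between combination and vorinostat 1 rose, the helicase DDX5 (1.11; 6.25%, beside 3.37% higher over all tested genes).

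**Figure D4:**
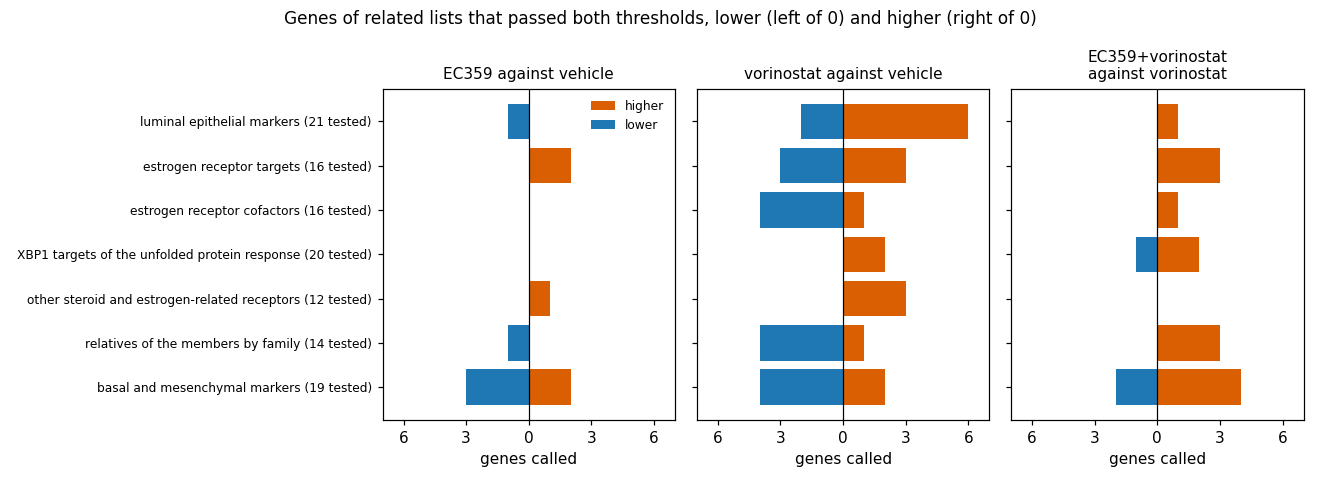
Genes called lower (blue, left of 0) and higher (orange, right of 0) in 7 gene lists (rows, with the number tested) for EC359 against vehicle, vorinostat against vehicle, and EC359 + vorinostat against vorinostat. The horizontal axis counts genes. With vorinostat the luminal list has 6 higher and 2 lower, and the cofactor list 1 higher and 4 lower.

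Targets of XBP1 in the unfolded protein response were described beside the fall of XBP1 RNA. All 20 listed genes were tested, and with vorinostat the 2 that passed both thresholds, HERPUD1 (1.01) and ERN1 (1.59), were higher (10% of the list, beside 16.8% of all tested genes; median over the list 0.24; 1 passed when any EC359 or combination library was left out). Genes of the list that were not called moved in both directions. The secretory coat gene SEC24D changed by -0.88 (SE 0.09, edgeR adjusted p = 2.6e-05), under the fold threshold. SYVN1, also not called, went from 61.8 ± 4.41 CPM in vehicle to 121 ± 5.80 CPM with vorinostat. HERPUD1, which serves ER-associated degradation, went from 91.7 ± 4.76 CPM in vehicle to 184 ± 4.77 with vorinostat and 438 ± 24.8 with both drugs. ERN1, which encodes the IRE1 kinase that splices XBP1 RNA, went from 1.64 ± 0.0542 to 4.94 ± 0.587 and 12.2 ± 1.75 CPM. With both drugs 3 rose, ERN1 (2.89), HERPUD1 (2.26) and the ER chaperone gene DNAJB9 (1.48), and 2 fell, SEC24D (-1.46) and CRELD2 (-1.06). These were 15% and 10%, beside 19.5% higher and 15.3% lower over all tested genes. Between combination and vorinostat ERN1 (1.30) and HERPUD1 (1.25) rose and CRELD2 fell (-1.04). These were 10% and 5%, beside 3.37% higher and 0.876% lower over all tested genes. Not all of these calls held without combination replicate 2 or either vorinostat library. HERPUD1 was the 1 gene of this list called for departure from additivity (1.23, SE 0.12, edgeR adjusted p = 8.3e-04), and that call was lost without vehicle replicate 2, combination replicate 1 or either vorinostat library.

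Among 13 other steroid, vitamin D, retinoid and estrogen-related receptors, 12 were tested and 3 rose with vorinostat (25%, beside 16.8% of all tested genes; median 0.43). Of the 12, 2 were under 10 counts in every library without vorinostat. NR3C2, the mineralocorticoid receptor, went from 1.41 ± 0.542 to 12.6 ± 0.315 CPM (log2 fold change 3.16, SE 0.26, edgeR adjusted p = 7.7e-06). VDR, the vitamin D receptor, rose by 1.80 with EC359, by 1.86 with vorinostat and by 2.70 with both, the first being lost without either vehicle library. RARB, a retinoic acid receptor, rose by 1.24 with vorinostat. With both drugs RARG fell by 1.29.

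Relatives of the members by protein family included both rising and falling genes. Of 22 GATA, FOX, ETS and CREB/XBP relatives, 14 were tested, and with vorinostat 1 rose and 4 fell (7.14% and 28.6%, beside 16.8% and 13.3% of all tested genes; median -0.48). EHF rose as given above. FOXC1, a forkhead factor of basal breast cells, fell from 158 ± 6.42 to 22.9 ± 0.876 CPM (-2.78, SE 0.23, edgeR adjusted p = 7.9e-06). It stood at 64.5 ± 19.7 CPM with EC359 and 85.2 ± 21.6 CPM with both drugs, and the combination departed from additivity by 3.18 (SE 0.31, edgeR adjusted p = 7.1e-04). ELF4 (-1.88), the proliferation factor FOXM1 (-1.69) and CREB3L1 (-1.34) also fell with vorinostat. GATA6 was 1.09 and ETS1 1.04 higher with both drugs than with vorinostat. In this list 3 were called higher between these groups (21.4%, beside 3.37% of all tested genes). Not all of these calls held without vorinostat replicate 1.

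Basal and mesenchymal markers also moved in both directions. Of 24 listed, 19 were tested. In EC359 2 were higher and 3 lower (10.5% and 15.8%, beside 1.94% and 1.72% of all tested genes). In vorinostat 2 were higher and 4 lower (10.5% and 21.1%, beside 16.8% and 13.3% of all tested genes; median -0.62). In the combination 4 were higher and 7 lower (21.1% and 36.8%, beside 19.5% and 15.3% of all tested genes). The 5 called with EC359 came down to 2 without either vehicle library and 3 without either vorinostat library. VIM rose by 1.22 with vorinostat and by 2.15 with both drugs, from 2111 ± 77.7 to 4927 ± 54.9 and 9376 ± 94.1 CPM. Further genes were named after their values were seen. TP63 went from 0.775 to 2.84 and 3.40 CPM over the same groups. SPARC went from 3459 to 1915 and 907 CPM, and TWIST1 from 67.6 to 43.9 and 14.4 CPM. Besides FOXC1, ZEB2 (-2.43), EGFR (-2.09) and CAV1 (-1.88) fell with vorinostat. LIFR, the receptor that EC359 targets, stood at 25.7 ± 3.30 CPM in vehicle, 15.4 ± 1.90 in EC359, 80.7 ± 0.486 in vorinostat and 119 ± 0.909 in the combination.

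The tested genes with changes most like each member were found by the root mean square difference over the 3 log2 fold changes against vehicle. For GATA3 they were the Notch ligand gene JAG1 (0.0824), GLT8D2 (0.127) and DNER (0.130). For FOXA1 they were PCDHGB7 (0.0491), AMZ1 (0.0610) and LCOR (0.0668). XBP1 was closest to ZNF662 (0.0730), FAM123B (0.0813) and the neurotrophin receptor gene NTRK3 (0.0978). ELF3 was closest to the epithelial plakin gene PPL (0.181), FAM131C (0.284) and PCDHAC1 (0.295). For ESR1, whose fitted changes rest on 0 vehicle counts, they were MT1F, BRS3 and KDR.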

How the data were processed

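RNA-seq of 8 BT-549 libraries (4 groups of 2) was used. Per the labels and the study's methods, the authors aligned 50 bp single-end reads to hg19 with TopHat2 2.0.8b and deposited raw counts per RefSeq gene from HTSeq, 1 table per library. The HTSeq version and strand setting are not given in the sources used here. The 5 HTSeq summary lines were left out, and 85.1 to 88.1% of unique alignments lay on genes.

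Genes were kept by edgeR's filterByExpr (minimum count 10, by group), scaled by TMM and fitted with 1 mean per group over all 8 libraries (edgeR 4.0.16, R 4.3.3, glmQLFit and glmQLFTest, Benjamini-Hochberg over 13694 genes). A gene was called at adjusted p < 0.01 with |log2 fold change| > 1. These thresholds are those of the study, which used DESeq and clustered genes with RPKM over 1. No such level rule was used here, and of the members only XBP1 had group means over 1 RPKM. The interaction needed the adjusted p alone. The test was checked on simulated counts with 1 common spread and with changes planted only in well-counted genes. That check does not cover the low-count members. Members under the filter were given as counts and compared by exact permutation. RPKM used exonic lengths of GENCODE on GRCh37, found for 19048 of 23228 symbols. Promoters came from RefSeq. DESeq2 1.42.0, RLE and total-count scaling, other filters, a fit of only the groups compared, a replicate block and leaving out each library were tried. A crossed block was added after seeing the data.

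The members and lists were chosen with earlier results of these data known. Named genes were all members, up to 4 called genes per list and comparison by absolute log2 fold change, defining markers, LIFR, and the 3 genes nearest each tested member.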

Additional observations from a re-analysis of the deposited data

How the results depend on the processing

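Of 452 member log2 fold changes recomputed, 420 kept their direction and call, 23 lost the call, 4 gained it and 5 turned. Without EC359 replicate 1, the EC359 change of GATA3 was -0.57 (up to 1.56 over leave-outs), and the departures from additivity were 1.71 for ESR1 (from -3.73), 0.11 for FOXA1 (from -0.51) and 0.92 for GATA3 (from -1.21), each range reaching its other end without EC359 replicate 2. Without EC359 replicate 2, the EC359 change of XBP1 was -0.026 (up to 0.28 without replicate 1). The 2 EC359 libraries differed most from each other. The squared difference between replicates, relative to counting error alone, averaged 49.4 in EC359. It was 7.13 in vehicle, 2.26 in vorinostat and 9.82 in the combination. The edgeR fit shares its estimate of spread over all 4 groups. The cause of these changes was not tested. Among members under the filter, the difference with minus without vorinostat was 0.0285 CPM for ESR2 without EC359 replicate 2 and 0.00756 without combination replicate 1 (range over leave-outs -0.0729 to 0.0285), 0.0129 for TFF1 without vehicle replicate 2 (-0.0350 to 0.0129), 0 to 0.0170 for PGR and 0.133 to 0.235 for SPDEF. Members called in the combination against vehicle were 4, and 2 under the stricter filter, which tests fewer genes, with 1 to 4 over leave-outs. Against EC359 they were 2, and 1 in the fit of these groups only (1 to 2 over leave-outs). Against vorinostat they were 0, and 1 with no fold threshold or with these groups only (0 to 1 over leave-outs). For the departure from additivity they were 0 (0 to 1 over leave-outs). All genes called with EC359 were 502, and 233 with these groups only (298 to 924 over leave-outs, the highest without EC359 replicate 2 and the lowest without vehicle replicate 2). Combination against vorinostat gave 582 (285 to 730, the lowest without vorinostat replicate 1). The departure from additivity gave 288, 686 by DESeq2 and 56 to 1437 over leave-outs (1420 and 1437 without EC359 replicate 1 and 2, 56 to 71 without any of the others).

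Pairing by replicate number was not assumed in the main fit. Deviations of same-numbered libraries correlated at 0.231 for vehicle and EC359, 0.0746 for vehicle and vorinostat and -0.100 for vehicle and combination. The correlations were -0.00984 for EC359 and vorinostat, -0.173 for EC359 and combination and -0.108 for vorinostat and combination. These values do not settle whether the libraries were paired. With the replicate block 189 genes departed from additivity and ELF3 in the combination had an adjusted p of 0.0127 (edgeR). With the block crossed for the combination libraries, chosen after seeing the data, 477 genes did. Total-count scaling moved the median of all genes by at most -0.09 (log2). With 2 libraries a group and 20 or fewer counts per library, ESR1, ESR2, PGR, SPDEF and TFF1 are limited by depth.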
